A study of Mus musculus with 8 samples.

Results

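The genes described here encode the subunits of NF-kB and the IkB proteins that bind them, measured in IL-6-treated macrophages grown from mouse bone marrow. The family was taken as 10 genes by name, and 9 of them had a probe set with that single gene symbol, out of 19938 genes in the array table. The 9 were the subunit genes Nfkb2, Rel, Rela and Relb, the classical IkB genes Nfkbia, Nfkbib and Nfkbie, and the atypical IkB genes Bcl3 and Nfkbiz. Nfkb1 was not analysed here, and each of the 9 genes rested on 1 probe set. IL6raKO macrophages came from mice with Il6ra flox/flox alleles and the LysMCre transgene (tg/wt), a recombinase driven from the lysozyme locus of myeloid cells. Ctrl macrophages came from Il6ra flox/flox mice for which no Cre is named. Both groups were differentiated with M-CSF (10 ng/ml) for 10 days, starved of serum overnight and given IL-6 (50 ng/ml) for 4 h before total RNA was taken. There were 4 arrays of each genotype, labelled as biological replicates. Whether each stands for its own animal is not stated, and p-values then cover only the variation among these 8 samples, which may be technical. No untreated arrays were analysed here, so a genotype difference that needs IL-6 and one present before it cannot be told apart, nor can loss of the receptor be told apart from the presence of Cre.

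NF-kB is a dimer of Rel-domain proteins that waits in the cytoplasm, held there by classical IkB proteins. Inflammatory signals make the IKK kinases phosphorylate a classical IkB, which is then destroyed, and the freed dimer enters the nucleus. Rela and Rel carry transactivation domains and form the dimers of the canonical route, while Relb pairs with the processed product of Nfkb2 in the non-canonical route. Atypical IkB proteins act in the nucleus instead. Bcl3 binds homodimers of p50 or p52, the products of Nfkb1 and Nfkb2, and IkB zeta, the product of Nfkbiz, is a cofactor for a set of secondary response genes. Several family genes are themselves NF-kB targets, and Bcl3 is also a known target of STAT3, the transcription factor that IL-6 activates.

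The promoter windows of the members are shown because the family is known for feedback on its own genes and because IL-6 acts through STAT3. Each window holds 250 bases before and 50 bases after an annotated start (RefSeq, GRCm38.p6), written 5′ to 3′ on the strand of the gene, and 7 of the 9 genes had 1 or more windows. Searched on both strands were the kB consensus, the decamer bound by NF-kB, and the STAT motif TTCNNNGAA, which reads the same on both strands. Overlapping matches of the kB consensus were counted separately, and capitals mark every base in a match of either motif.
Bcl3, chr7:19822706-19823005, minus strand: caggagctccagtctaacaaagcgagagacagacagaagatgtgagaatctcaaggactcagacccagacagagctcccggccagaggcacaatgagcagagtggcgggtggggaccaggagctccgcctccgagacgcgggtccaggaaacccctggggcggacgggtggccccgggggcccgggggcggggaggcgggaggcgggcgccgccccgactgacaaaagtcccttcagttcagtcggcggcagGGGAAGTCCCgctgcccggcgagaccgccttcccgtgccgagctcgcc
Nfkbia, chr12:55492598-55492897, minus strand: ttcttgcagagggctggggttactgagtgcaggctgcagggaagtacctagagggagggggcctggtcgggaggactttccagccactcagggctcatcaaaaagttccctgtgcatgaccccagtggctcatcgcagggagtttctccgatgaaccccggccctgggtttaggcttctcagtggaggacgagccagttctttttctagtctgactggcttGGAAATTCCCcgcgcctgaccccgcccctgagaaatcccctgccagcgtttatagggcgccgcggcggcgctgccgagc
Nfkbie, chr17:45555450-45555749, plus strand: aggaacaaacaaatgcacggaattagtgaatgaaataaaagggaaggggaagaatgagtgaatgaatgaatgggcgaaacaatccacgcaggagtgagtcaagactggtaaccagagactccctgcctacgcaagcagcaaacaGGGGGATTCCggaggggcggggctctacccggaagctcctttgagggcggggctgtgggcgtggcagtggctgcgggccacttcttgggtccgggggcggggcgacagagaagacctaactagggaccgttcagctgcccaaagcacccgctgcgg
Rel, chr11:23770920-23771219, minus strand: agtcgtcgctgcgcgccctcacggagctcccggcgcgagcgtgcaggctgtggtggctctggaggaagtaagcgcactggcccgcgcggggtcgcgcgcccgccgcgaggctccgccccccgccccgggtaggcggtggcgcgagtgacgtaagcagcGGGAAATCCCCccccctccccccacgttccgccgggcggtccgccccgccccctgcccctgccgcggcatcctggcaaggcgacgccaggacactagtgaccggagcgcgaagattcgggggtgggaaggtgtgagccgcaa
Nfkb2, chr19:46304487-46304786, plus strand: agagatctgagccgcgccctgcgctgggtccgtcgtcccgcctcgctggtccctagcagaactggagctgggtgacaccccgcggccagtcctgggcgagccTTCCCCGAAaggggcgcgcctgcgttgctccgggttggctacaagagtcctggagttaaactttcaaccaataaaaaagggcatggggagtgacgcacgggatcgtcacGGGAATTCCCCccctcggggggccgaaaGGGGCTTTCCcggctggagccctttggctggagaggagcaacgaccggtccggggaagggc
The kB consensus was found in windows of 5 of the 7 genes, against 9.55% of the 27025 genes with a window in the table and 8.46% of single windows. Bcl3 had 1 match, GGGAAGTCCC, which began at base 3 of the transcribed part. Nfkbia had GGAAATTCCC with its first base 29 bases before the start, and Nfkbie had GGGGGATTCC at 106 bases before it. In Rel, the overlapping decamers GGGAAATCCC and GGAAATCCCC lay 92 and 91 bases before the start. Nfkb2 has 3 annotated windows, and the one shown held 3 kB matches and 1 STAT match, TTCCCCGAA. The windows of Rela and Nfkbib held neither motif. The STAT motif was present in 1 of the 7 genes, against 9.55% of all genes, and the Bcl3 window shown had 0. These are matches of letters near an annotated start, and no binding was measured.

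Il6ra was lower in IL6raKO macrophages, at 7.75, 8.10, 7.91 and 7.92 in the IL6raKO arrays, against 8.43, 8.40, 8.40 and 8.45 in the Ctrl arrays, on the log2 scale of the deposited values. The groups did not overlap, and IL6raKO minus Ctrl was -0.50 (adjusted p = 0.0607 in limma). Macrophage markers were high in both groups: the mean log2 level of 7 of 8 such genes lay between 11.79 and 11.84 in IL6raKO and between 11.81 and 11.93 in Ctrl. Array medians over all probe sets lay between 6.31 and 6.35. Along the first principal component, which held 23.6% of the variance, Ctrl replicate 4 was at 21.5 while the other 7 arrays lay between -6.60 and 4.82. Precision is limited by the number of arrays. In RNA from whole cultures, fewer cells of a type and less RNA per cell cannot be told apart.

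Bcl3 was the member that separated the genotypes. Its log2 expression was 8.00, 8.03, 8.03 and 7.99 in IL6raKO replicates 1 to 4, against 8.27, 8.30, 8.57 and 8.43 in Ctrl replicates 1 to 4. Every IL6raKO array lay below every Ctrl array, and the highest IL6raKO value minus the lowest Ctrl value was -0.24. The means were 8.01 ± 0.02 in IL6raKO and 8.39 ± 0.14 in Ctrl (SD, n = 4 each), a difference of -0.38 (SE 0.07, 95% confidence interval -0.54 to -0.22). On the linear scale the IL6raKO level was 76.8% of the Ctrl level (95% confidence interval 68.7% to 85.8%). The IL6raKO arrays spanned 0.05 and the Ctrl arrays 0.29, so that the spread lay mainly among the Ctrl arrays.

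With default settings, limma did not call Bcl3 once p was adjusted for every gene. Its limma p was 0.00025 unadjusted and 0.237 after Benjamini-Hochberg adjustment over the 19938 genes, of which 19 had a lower p. With a trended and robust variance model the limma adjusted p was 0.0465, and over the 16 alternatives it lay between 0.0465 and 0.621. An exact permutation test of this single gene gave a two-sided p of 0.0286, the smallest that 4 arrays against 4 can give. That value follows from the lack of overlap given above and is not adjusted for the 9 members so tested. Without Ctrl replicate 3, the highest Ctrl value, the difference was -0.32, and without Ctrl replicate 4 it was -0.37.

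Of the 9 measured members, 0 were called in limma at an adjusted p under 0.05, a threshold that 0.0301% of all genes passed. At an unadjusted p under 0.05 there was 1 lower member, Bcl3, where 4.54% of all genes were lower, and 0 higher members, where 2.74% of all genes were higher. Bcl3 was also the 1 member whose IL6raKO arrays all lay below the Ctrl arrays, as did 2.37% of all genes, and 0 members lay entirely above, against 2.07%. By direction alone, 4 members were lower and 5 higher, where 10803 of all 19938 genes were lower. The median difference of the members was 0.01, and that of all genes was -0.01. The members were chosen with earlier results of these data known, so these counts are not independent of those results.

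**Figure D1:**
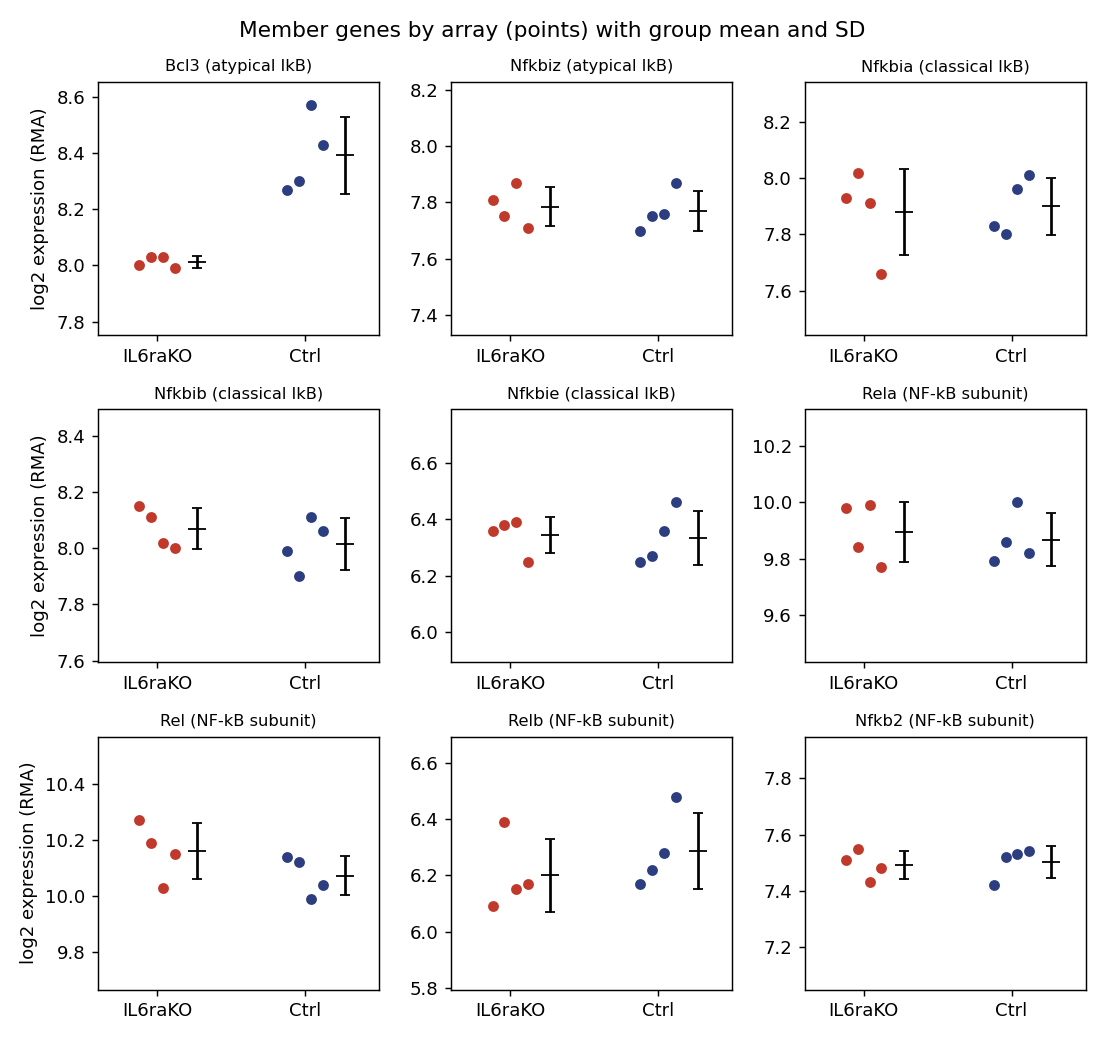
Log2 expression (RMA) of the 9 measured genes, with a point per array, IL6raKO on the left and Ctrl on the right of each panel, and the group mean with SD beside the points (n = 4 each). All panels span the same number of log2 units. The Bcl3 points of IL6raKO, between 7.99 and 8.03, lie below those of Ctrl, between 8.27 and 8.57, and the points of the other 8 genes overlap.

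The other atypical IkB gene, Nfkbiz, showed no such separation. Its log2 expression was 7.81, 7.75, 7.87 and 7.71 in IL6raKO replicates 1 to 4, against 7.70, 7.75, 7.76 and 7.87 in Ctrl replicates 1 to 4. The groups covered nearly the same range. The difference was 0.01 (95% confidence interval -0.13 to 0.16) with an adjusted p of 0.975 in limma, which in linear terms runs from 91.6% to 111% of the Ctrl level. Under centring on the 75th percentile or quantile normalization applied again, its sign turned (-0.01 in both). Nfkbid, a further atypical IkB gene of the nucleus that is not among the members, differed by 0.06 (95% confidence interval -0.12 to 0.24, limma adjusted p = 0.891).

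The 3 classical IkB genes also overlapped between genotypes. Nfkbia, which encodes IkB alpha, the fast feedback inhibitor of Rela dimers, was at 7.93, 8.02, 7.91 and 7.66 in the IL6raKO arrays, against 7.83, 7.80, 7.96 and 8.01 in the Ctrl arrays. IL6raKO replicate 4 was the lowest of these 8 arrays. The difference was -0.02 (95% confidence interval -0.21 to 0.16), and its sign turned without that array (0.05) or without Ctrl replicate 4 (0.01). Nfkbib, for IkB beta, was at 8.15, 8.11, 8.02 and 8.00 in the IL6raKO arrays, against 7.99, 7.90, 8.11 and 8.06 in the Ctrl arrays. Its difference was 0.05 (95% confidence interval -0.09 to 0.20), and Ctrl replicates 3 and 4 lay above IL6raKO replicates 3 and 4. Nfkbie, for IkB epsilon, was at 6.36, 6.38, 6.39 and 6.25 in the IL6raKO arrays, against 6.25, 6.27, 6.36 and 6.46 in the Ctrl arrays. The groups shared their low end, and the difference was 0.01 (95% confidence interval -0.14 to 0.16), or -0.02 when arrays were centred on the 75th percentile. The limma adjusted p of the classical genes lay at 0.888 or higher.

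**Figure D2:**
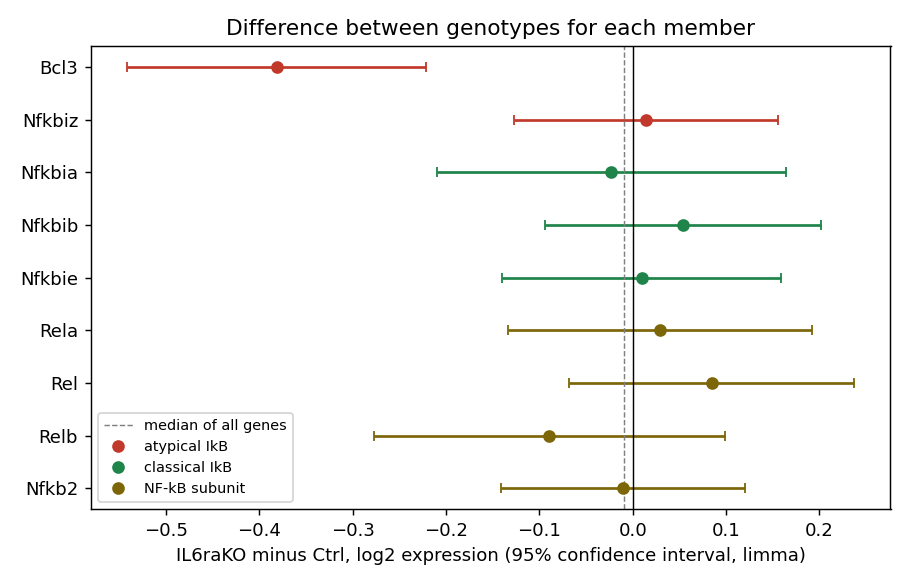
Difference in log2 expression, IL6raKO minus Ctrl, for each measured member, with its 95% confidence interval from limma and colour by role. The interval of Bcl3, from -0.54 to -0.22, lies below 0, and the intervals of the other 8 members include 0.

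Atypical and classical IkB genes were set side by side within each array, as deviations from each gene's mean over the 8 arrays and with no test. The mean deviation of Bcl3 and Nfkbiz was -0.09, -0.10, -0.04 and -0.14 in the IL6raKO arrays, against 0.00, 0.04, 0.17 and 0.16 in the Ctrl arrays. The mean deviation of the 3 classical genes was 0.05, 0.08, 0.01 and -0.12 in the IL6raKO arrays, against -0.06, -0.10, 0.05 and 0.09 in the Ctrl arrays. The atypical pair thus averaged -0.18 (IL6raKO minus Ctrl) and the classical genes 0.01. The pair itself was split. Bcl3 relative to the classical mean differed by -0.39 between genotypes and Nfkbiz relative to it by 0.00. Bcl3 relative to Nfkbiz was at -0.24, -0.14, -0.27 and -0.15 in the IL6raKO arrays, against 0.15, 0.12, 0.39 and 0.14 in the Ctrl arrays. That contrast was below 0 in each IL6raKO array and above 0 in each Ctrl array. It largely restates the separation of Bcl3 given above, since Nfkbiz deviated only between -0.08 and 0.09.

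**Figure D3:**
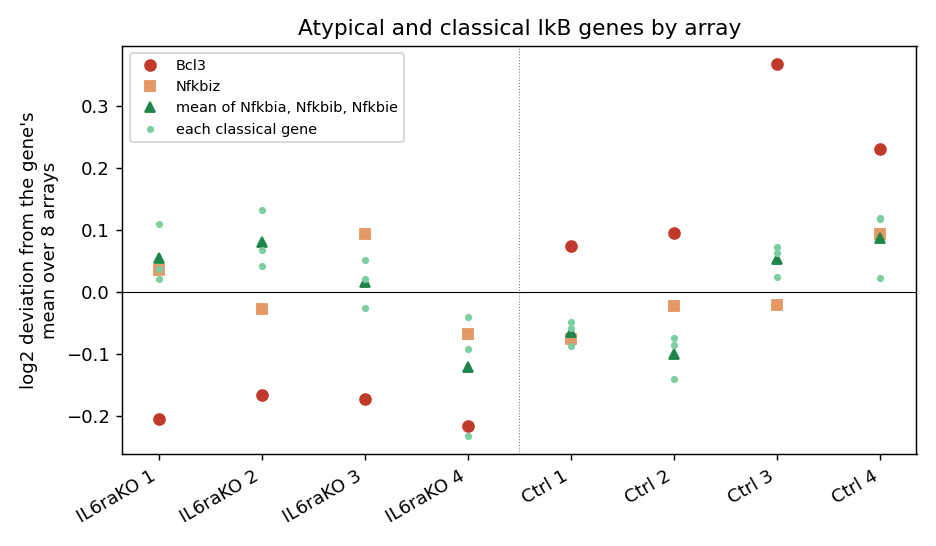
Log2 deviation from the gene's own mean over 8 arrays, on the y axis, in each array on the x axis, for Bcl3 (circles), Nfkbiz (squares), the mean of the 3 classical IkB genes (triangles) and each classical gene (dots). Bcl3 lies below 0 in the 4 IL6raKO arrays and above 0 in the 4 Ctrl arrays, while Nfkbiz and the classical mean take both signs within each genotype.

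The Rel-domain subunit genes did not separate the genotypes. Rela, the main activating subunit, ranged from 9.77 to 9.99 in IL6raKO and from 9.79 to 10.00 in Ctrl, a difference of 0.03 (95% confidence interval -0.13 to 0.19). Rel, which encodes c-Rel, was at 10.27, 10.19, 10.03 and 10.15 in the IL6raKO arrays, against 10.14, 10.12, 9.99 and 10.04 in the Ctrl arrays. It had the largest positive difference of the 9 members, 0.08 (95% confidence interval -0.07 to 0.24, limma adjusted p = 0.808), and IL6raKO replicate 3 was the array that overlapped the Ctrl range. Without that array the difference was 0.13. The remaining IL6raKO arrays lay above the Ctrl arrays, which follows from removing the only array that overlapped.

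The non-canonical subunits were likewise within the replicate spread. Relb was at 6.09, 6.39, 6.15 and 6.17 in the IL6raKO arrays, against 6.17, 6.22, 6.28 and 6.48 in the Ctrl arrays, with -0.09 for IL6raKO minus Ctrl (95% confidence interval -0.28 to 0.10, adjusted p = 0.845 in limma). Each group had a single high array, IL6raKO replicate 2 and Ctrl replicate 4. Without IL6raKO replicate 2, the only IL6raKO array that reached into the Ctrl range, the difference was -0.15. The groups then did not overlap, which follows from that removal. Without Ctrl replicate 4 the difference was -0.03. Nfkb2 ranged from 7.43 to 7.55 in IL6raKO and from 7.42 to 7.54 in Ctrl, a difference of -0.01 (95% confidence interval -0.14 to 0.12), or 0.0021 without Ctrl replicate 4. The exact two-sided permutation p of the 8 members other than Bcl3 lay between 0.2 and 0.857.

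The arrays with the highest and lowest value of each member were counted within each group. Within the IL6raKO group, replicate 4 had the lowest value for 6 of the 9 members and the highest for 0. Within the Ctrl group, replicate 1 had the lowest value for 6 of the 9 and replicate 4 the highest for 5. The shares of all genes with these orders were not computed, so these counts have no background beside them. Ctrl replicate 4 is the array set apart by the principal component above. In that array the mast cell and basophil markers (9 genes) were 0.36 above their mean over all arrays, while the other Ctrl arrays lay between -0.14 and 0.04. The neutrophil markers (8 genes) were 0.25 above theirs, with the other Ctrl arrays between -0.11 and 0.02, and the stromal markers (5 genes) 0.11 above, with the other Ctrl arrays between -0.04 and 0.06. The B cell list was also highest in that array (0.11, with 0.03 to 0.09 in the other Ctrl arrays). The part of these markers in the members' values was not tested.

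Markers of other cell types were set beside the Bcl3 difference. The mean log2 level of the mast cell and basophil list lay between 5.69 and 6.18 in IL6raKO and between 5.90 and 6.40 in Ctrl, with 8 of 9 genes lower by direction and 0 at an unadjusted limma p under 0.05. The B cell list, with 4 of its 5 genes measured, lay between 5.20 and 5.30 in IL6raKO and between 5.36 and 5.44 in Ctrl, which did not overlap. All 4 B cell genes were lower by direction (Cd79a -0.21, Ms4a1 -0.18, Pax5 -0.09, Cd79b -0.07), and 0 had an unadjusted limma p under 0.05. The T and NK cell list had 4 of 5 genes measured. It lay between 5.20 and 5.27 in IL6raKO and between 5.26 and 5.44 in Ctrl, with a small overlap. Cd3d (-0.26) and Cd8a (-0.17) had an unadjusted limma p under 0.05, where 4.54% of all genes were lower at that threshold. The neutrophil list lay between 5.86 and 6.23 in IL6raKO and between 6.004 and 6.360 in Ctrl, with 5 of 8 genes lower by direction. The dendritic cell list lay between 6.74 and 6.86 in IL6raKO and between 6.78 and 6.89 in Ctrl, with 3 of 5 lower, and the stromal list between 6.17 and 6.29 in IL6raKO and between 6.24 and 6.39 in Ctrl, with 4 of 5 lower. Mpo, the neutrophil myeloperoxidase (-0.20), and Zbtb46, a dendritic cell transcription factor (-0.22), had an unadjusted limma p under 0.05. Like Bcl3, both had every IL6raKO array below every Ctrl array, as did 2.37% of all genes. Fcgr1, an Fc receptor of the macrophage list, differed by -0.24 with an unadjusted limma p of 0.0492. The deposited table has no detection call, so whether the low values among these markers are above background is not known. Not all of them were low. Cpa3 had a mean of 8.07 in IL6raKO and 8.44 in Ctrl, and Mcpt8 of 7.14 and 7.60. The part of these markers in the Bcl3 difference was not tested.

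Bcl3 lies on chromosome 7 in the RefSeq gene order, 9 measured genes away from Relb. The 3 measured neighbours on either side were looked at after the members' values were seen. Their differences lay between -0.12 (Ceacam19) and 0.18 (Ceacam16), and Cblc and Ceacam16, the nearest on each side, were at -0.07 and 0.18. The limma adjusted p of the 6 neighbours was 0.669 or higher. Ceacam16 had an unadjusted limma p of 0.032, where 2.74% of all genes were higher at an unadjusted p under 0.05.

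The genes whose log2 profile over the 8 arrays was most like that of Bcl3 were sought by the root mean square difference of profiles centred on each gene's mean, among 2016 named genes that varied at least 0.8 times as much. They were Pgap6 (root mean square difference 0.07 on the log2 scale), Kir3dl1, an NK cell receptor gene (0.08), Odf3l2 and Ugt2b35 (0.09 each) and Ccr3, the eosinophil eotaxin receptor (0.09). The measure for a flat profile would be 0.21. These genes were picked for a profile like that of Bcl3, so their separation of the genotypes follows largely from the choice. Over the 8 arrays Ugt2b35 (2.96 to 3.63), Kir3dl1 (3.82 to 4.46) and Odf3l2 (4.87 to 5.43) were at low values, and whether these are above background is not known. Pgap6 was at 8.52, 8.55, 8.61 and 8.58 in the IL6raKO arrays, against 8.92, 8.94, 9.04 and 9.10 in the Ctrl arrays, a difference of -0.43 (limma adjusted p = 0.0501). Stat3, the IL-6-activated transcription factor, is given beside Bcl3 as a gene chosen after its values were seen. It was at 9.09, 9.14, 9.33 and 9.23 in the IL6raKO arrays, against 9.68, 9.76, 9.81 and 9.82 in the Ctrl arrays. Its difference of -0.57 passed in limma (adjusted p = 0.0348). It passed in 6 of the 16 alternatives and in 0 of the 8 fits with an array left out, with an adjusted p between 0.00077 and 0.258 and a difference between -0.62 and -0.54. Stat3 and Bcl3 both separated the genotypes, and both had their higher Ctrl values in replicates 3 and 4. Those arrays also stood highest on the first principal component, at 4.82 and 21.5. The highest Ctrl array was replicate 4 for Stat3 and replicate 3 for Bcl3. Within IL6raKO, Stat3 ranged from 9.09 to 9.33 and Bcl3 from 7.99 to 8.03. Whether the genes vary together was not tested.

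Genes that act before and after NF-kB were described from lists written with earlier results of these data known. Of 25 measured genes of the IKK complex and its adaptors (of 29 listed), 0 were called in limma over all genes and 2 had an unadjusted p under 0.05, both higher, where 2.74% of all genes were higher. These were Irak2, a kinase of the IL-1 and Toll-like receptor route (difference 0.16, 95% confidence interval 0.02 to 0.30), and Malt1, a protease of the CARD-BCL10-MALT1 complex (0.17, 95% confidence interval 0.02 to 0.32). Irak2 was at 7.64, 7.62, 7.57 and 7.53 in the IL6raKO arrays, against 7.44, 7.49, 7.50 and 7.29 in the Ctrl arrays, without overlap. Of the 25 genes, 3 lay entirely above Ctrl (Irak2, Malt1 and Ikbkg), beside 2.07% of all genes. Entirely below were 0, beside 2.37% of all genes. Over the list the median difference was 0.01. Ikbkb, the catalytic kinase that marks classical IkB proteins, differed by -0.02 (95% confidence interval -0.21 to 0.17), and it was picked as the best known gene of the list after its value was seen.

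Of 16 measured brakes of the pathway, 0 were called in limma over all genes, and 2 had an unadjusted p under 0.05, both higher, again beside 2.74% of all genes. Tnip3, an A20-binding inhibitor of NF-kB, was at 9.31, 9.38, 9.46 and 9.55 in the IL6raKO arrays, against 9.07, 9.16, 8.87 and 9.35 in the Ctrl arrays. Only Ctrl replicate 4 reached into the IL6raKO range, and the difference was 0.32 (95% confidence interval 0.10 to 0.53, limma adjusted p = 0.573). Zc3h12a, an RNase that degrades inflammatory mRNAs, differed by 0.21 (95% confidence interval 0.02 to 0.40). Over the list the median difference was 0.02.

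Of 35 measured NF-kB target genes, 0 were called in limma over all genes, and 7 had an unadjusted p under 0.05, 3 lower and 4 higher, where 4.54% of all genes were lower and 2.74% higher. The higher genes were Plau, the urokinase plasminogen activator (0.43, adjusted p = 0.078), Cxcl2, a neutrophil chemokine (0.35), Cd80, a costimulatory ligand (0.28, with 0.04 on its other probe set), and Il1a, a cytokine (0.25). The lower genes were Saa3, an acute-phase protein (-0.27), Irf1, an interferon regulatory factor (-0.22, with 0.00 on its other probe set), and Ccl5, a T cell chemokine (-0.18). Cxcl2 was at 6.83, 6.73, 6.75 and 6.79 in the IL6raKO arrays, against 6.59, 6.21, 6.46 and 6.45 in the Ctrl arrays, without overlap. Of the 35 genes, 4 lay entirely above Ctrl (Plau, Cxcl2, Cd80 and Il1a), beside 2.07% of all genes. Entirely below was 1, Ccl5, beside 2.37% of all genes. The median of the list was -0.05, beside -0.01 for all genes. Of the 7 targets that need IkB zeta in mouse macrophages, 0 had an unadjusted p under 0.05, and the median was -0.11. The lowest p-values among them were those of Il6 (-0.16, 95% confidence interval -0.37 to 0.05) and Csf2 (-0.11, 95% confidence interval -0.27 to 0.04), both at low values between 3.16 and 4.58 over the 8 arrays. Il6, Il12b, Csf2, Csf3 and Lcn2 are also in the list of NF-kB target genes, so the medians of these lists are not independent.

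**Figure D4:**
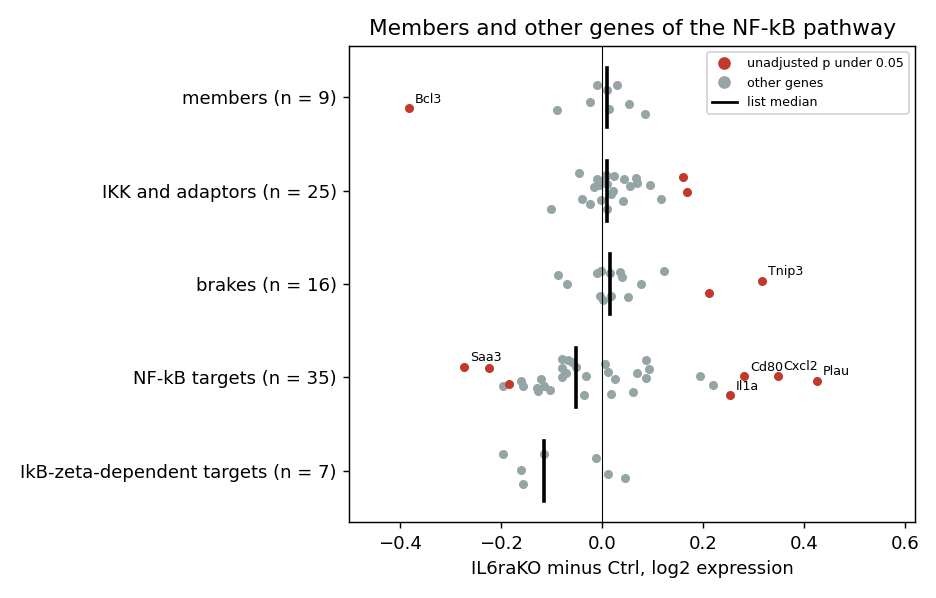
Difference in log2 expression, IL6raKO minus Ctrl, for each measured gene (points, with vertical scatter for visibility) of the members and of 4 lists of the NF-kB pathway, with the list median as a bar and red for an unadjusted limma p under 0.05. Bcl3 stands at -0.38, away from the other 8 members, which lie between -0.09 and 0.08, and the targets spread to both sides, from -0.27 for Saa3 to 0.43 for Plau. The target lists share genes, which are drawn in each.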

How the data were processed

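The deposited table holds log2 expression values of 35556 probe sets on 8 Affymetrix whole-transcript arrays, made by the authors with RMA (background correction, quantile normalization and probe summary) and R 2.13.1, per the submitters' processing notes. Any further step, and the genome build, were not given in the sources used here. RMA compresses differences of dim probe sets. Platform annotation named 21789 probe sets with 1 gene symbol, and each gene kept its brightest probe set by the mean of the 8 arrays, giving 19938 genes. IL6raKO was compared with Ctrl in limma 3.58.1 (R 4.3.3, lmFit and eBayes, no covariate, no filter), two-sided, with Benjamini-Hochberg adjustment over all genes and a threshold of 0.05. The fit was tested on simulated data. Scores over members got no test, and levels of different genes were not compared. The members and lists were chosen with earlier results of these data known. The named genes were all members, pathway list genes at an unadjusted p under 0.05 (or the 2 of lowest p), Il6ra and the 5 profiles most like Bcl3. Cell type markers, and other genes so marked, were named after their values were seen. Alternatives were the variance model, the replicate block, a filter, 2 normalizations, array weights, probe set rules and each array left out. Same-numbered arrays did not deviate together (correlations between -0.01 and 0.04).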

Additional observations from a re-analysis of the deposited data

Results flagged for a closer look

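Of 68 groups of 4 values that were checked, 2 had a single array well away from the others, and about 3.4 such groups arise by chance. Nfkb2 was at 7.42 in Ctrl replicate 1, while the other Ctrl arrays lay between 7.52 and 7.54. The contrast of Bcl3 relative to Nfkbiz was 0.39 in Ctrl replicate 3, while the other Ctrl arrays lay between 0.12 and 0.15.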

How the results depend on the processing

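Bcl3 was lower in IL6raKO under all 16 alternatives, and its unadjusted limma p stayed between 5.1e-05 and 0.0011. With any 1 array left out its difference lay between -0.42 and -0.32. The trended and robust variance model gave -0.38 with a limma adjusted p of 0.0465, so that 1 member was called there in place of 0. The same model called 22 genes in all, against 6, and the cause was not tested. With the replicate number as a block, 0 genes were called in limma and Bcl3 had a difference of -0.38 (adjusted p = 0.445, unadjusted p = 0.00076). The filter at the median level left 7 members and called 11 genes, testing all probe sets called 0, and leaving out an array called 0 or 1. Members lying entirely below Ctrl numbered 1 to 2 with an array left out (Relb was added without IL6raKO replicate 2). Those entirely above numbered 0 to 1 (Rel, without IL6raKO replicate 3). Groups separate more easily with fewer arrays, and the share of all genes was not computed there, so these counts have no background beside them. Differences near 0 changed sign. Centring on the 75th percentile gave -0.018 for Nfkbie and -0.013 for Nfkbiz, and quantile normalization -0.011 for Nfkbiz. With an array left out, the ranges were -0.038 to 0.011 for Nfkb2, -0.0020 to 0.074 for Rela, -0.070 to 0.051 for Nfkbia, -0.018 to 0.051 for Nfkbie and -0.014 to 0.048 for Nfkbiz. The atypical minus classical difference lay between -0.22 and -0.17 over its 12 alternatives. In the main fit it rested on Bcl3, as Nfkbiz relative to the classical mean differed by 0.00. With 4 arrays a group, the intervals of the 8 members other than Bcl3 include differences of up to 0.28 in size.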
